A study of Mus musculus with 18 samples.

Results

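The 10 genes described here, Apoe, Lpl, Spp1, Itgax, Cst7, Gpnmb, Lgals3, Clec7a, Cd9 and Fabp5, mark the activated microglia found around amyloid and damaged neurons. Several of them also mark the amoeboid microglia of developing white matter, known as proliferative-region-associated microglia. They were chosen by name, and every probe set that names exactly 1 of them was used. Of the 10 listed genes, 9 had such a probe set and all 9 were tested, among 11630 tested genes of 18194 genes with a probe set. These 9 genes were read by 12 of the 45101 probe sets. Spp1, which encodes the secreted protein osteopontin, had no probe set paired with it and was not analysed here.

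Expression was measured on 18 Affymetrix Mouse430_2 arrays of microglia from mouse embryos at E17.5, all of the C57BL/6 background and of unknown sex. Microglia were taken from pooled embryonic hippocampi by sorting CX3CR1-GFP+ cells, which carry a reporter of a gene active in microglia and in other cells of the monocyte and macrophage lineage, and RNA was pooled for each pregnant dam. The study compared microglia of DAP12-/- embryos (DAP12KO, untreated, 4 arrays) with those of untreated wild-type embryos (UT, 6 arrays), and microglia of wild-type embryos whose mothers received lipopolysaccharide (LPS, a bacterial endotoxin that causes maternal inflammation, 4 arrays) with those whose mothers received PBS (4 arrays). The titles of the arrays also carry a calendar year, called the label year and numbered from year 1 to year 4 in order of time. The sources used here do not say what it marks. The DAP12KO arrays were all of year 4, the UT arrays were 2 of year 3 and 4 of year 4, and PBS and LPS each had 1 array of year 1, 2 of year 2 and 1 of year 4.

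As background, DAP12 is a small adaptor protein encoded by Tyrobp that sits in the membrane and passes on the signals of receptors without signalling domains of their own. TREM2, one of these receptors, binds lipids and apolipoproteins, and in adult mice with amyloid plaques or demyelination microglia without TREM2 or DAP12 fail to switch on much of this gene programme. The programme joins lipid handling (Apoe, Lpl, Fabp5), surface receptors and membrane organisers (Itgax, Clec7a, Cd9) and lysosomal or secreted proteins (Gpnmb, Lgals3, Cst7, Spp1).

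Tyrobp, the gene targeted in the DAP12KO embryos, was read first as a check of the labels. Its log2 expression was 14.29 at the lowest, 14.50 at the median and 14.55 at the highest of the 6 UT arrays. In the DAP12KO arrays it stood at 13.80, 13.83, 13.75 and 14.23, below every UT array. In the PBS arrays of years 1, 2, 2 and 4 it stood at 14.51, 14.06, 13.97 and 14.43, and in the LPS arrays of the same years at 14.32, 14.51, 14.33 and 14.47. The fitted difference between DAP12KO and UT was −0.60 ± 0.13 (SE, adjusted p = 0.301, limma with Benjamini-Hochberg adjustment over all tested genes). Strong Tyrobp signal thus remained on the arrays labelled DAP12KO, and the sources used here do not say where these probes lie relative to the mutation. The labels were kept as given, and the phrase DAP12KO below means the arrays so labelled.

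The sorted cells carried the markers of microglia on every array. The mean log2 level of 13 tested of 14 microglia markers lay between 13.28 and 14.14 on 16 arrays and at 12.31 to 12.59 on the PBS arrays of year 2. On those PBS arrays the 21 tested neuron markers had their highest means (10.11 to 10.29, against 5.92 to 8.80 elsewhere), as did 17 markers of neural progenitors, radial glia and astrocytes (9.92 to 10.08, against 5.64 to 7.98). The Gapdh 3′ minus 5′ difference, which grows as RNA is degraded, was 2.01 to 3.33 on the arrays of years 1 and 2 and 0.89 to 1.20 on those of year 4 other than UT replicate 2 (2.23). The 2 arrays of year 3 stood at 1.31 and 2.77. The actin 3′ minus 5′ difference spanned less: −0.16 to −0.09 in year 1, −0.08 to 0.32 in year 2, −0.12 to 0.11 in year 3 and −0.21 to −0.09 in year 4.

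**Figure D1:**
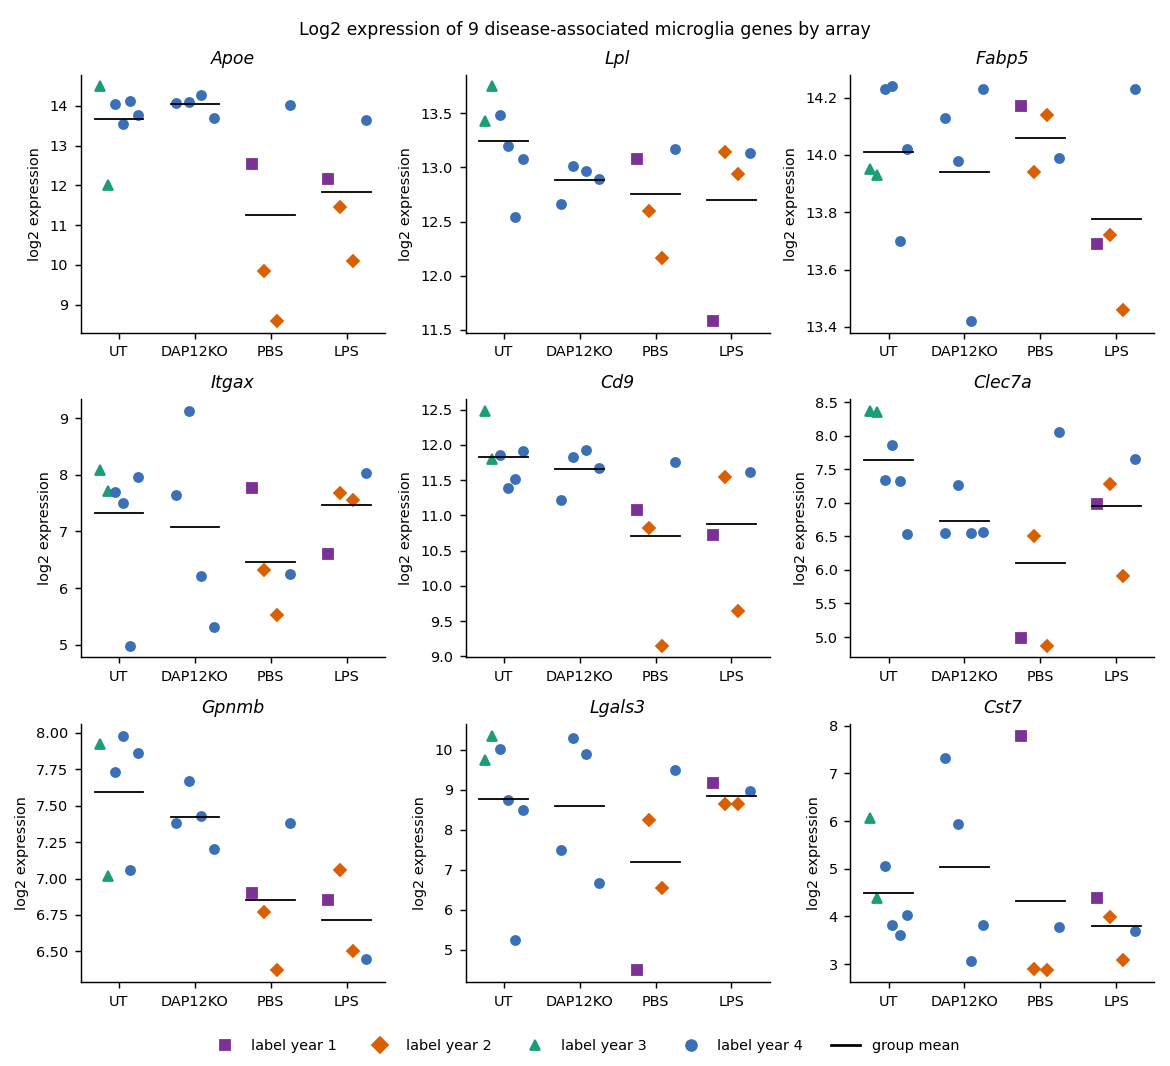
Log2 expression (vertical axis) of the 9 genes on each of the 18 arrays, by group (horizontal axis), with marker shape and colour for the label year and a line for the group mean. DAP12KO and UT points overlap in every panel, and the Apoe points of year 2 (8.59 to 11.45) lie below all other Apoe points.

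Apoe encodes the lipid carrier apolipoprotein E, which is bound by TREM2 and is also made by astrocytes and radial glia. UT arrays had a lowest log2 level of 12, a median of 13.91 and a highest of 14.49. The DAP12KO arrays stood at 14.08, 14.09, 14.28 and 13.69. The PBS arrays of years 1, 2, 2 and 4 stood at 12.53, 9.86, 8.59 and 14.03, and the LPS arrays of the same years at 12.17, 11.45, 10.09 and 13.65. DAP12KO lay inside the UT range, and the low values of PBS and LPS were those of year 2. Each array is a bulk sample, in which fewer cells that express a gene and less RNA per cell cannot be told apart.

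Lpl encodes lipoprotein lipase, which releases fatty acids from lipoproteins. On the brighter of its 2 probe sets, 1415904_at, UT arrays had a lowest log2 level of 12.54, a median of 13.32 and a highest of 13.75. In DAP12KO it stood at 12.66, 13.01, 12.97 and 12.89, all inside the UT range. In PBS it stood at 13.08, 12.60, 12.16 and 13.17 and in LPS at 11.58, 13.14, 12.94 and 13.13, here and below in the order of years 1, 2, 2 and 4. The LPS array of year 1 was the lowest of all 18 arrays.

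Fabp5 encodes a cytosolic fatty acid binding protein. On its brighter probe set, 1416021_a_at, UT arrays had a lowest log2 level of 13.70, a median of 13.99 and a highest of 14.24. DAP12KO gave 14.13, 13.98, 13.42 and 14.23. PBS gave 14.17, 13.94, 14.14 and 13.99 and LPS 13.69, 13.72, 13.46 and 14.23. Fabp5 varied least of the 9 genes: its residual SD in the fit was 0.27 log2, and 4.41% of tested genes had a lower one.

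Itgax encodes CD11c, an integrin subunit that pairs with the integrin beta 2 chain and defines a subset of activated and developmental microglia. UT arrays had a lowest log2 level of 4.98, a median of 7.71 and a highest of 8.08, and the lowest was replicate 3 of year 4. Values in DAP12KO were 7.64, 9.13, 6.22 and 5.31, with a value above every UT array and another near the lowest of them. Values in PBS were 7.77, 6.31, 5.52 and 6.24 and those in LPS 6.60, 7.68, 7.56 and 8.03. LPS was higher than PBS in years 2 and 4 and lower in year 1.

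Cd9 encodes a tetraspanin that organises receptors in the membrane. UT arrays had a lowest log2 level of 11.39, a median of 11.83 and a highest of 12.48. In DAP12KO it stood at 11.22, 11.83, 11.93 and 11.67. In PBS it stood at 11.07, 10.82, 9.15 and 11.76 and in LPS at 10.72, 11.55, 9.64 and 11.61. Replicate 2 of year 2 was the lowest array within both PBS and LPS.

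Clec7a encodes dectin-1, a receptor for fungal beta-glucans that signals through SYK and CARD9. UT arrays had a lowest log2 level of 6.53, a median of 7.60 and a highest of 8.37, with both arrays of year 3 (8.37 and 8.36) above the 4 of year 4. DAP12KO gave 6.55, 7.26, 6.55 and 6.56, near the bottom of the UT range and overlapping it. PBS gave 4.99, 6.50, 4.87 and 8.06 and LPS 6.98, 7.28, 5.91 and 7.66. LPS was higher than PBS in year 1, overlapped it in year 2 and was lower in year 4.

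Gpnmb encodes a glycoprotein of lysosomes and the cell surface that TFE family factors induce under lysosomal stress. On probe set 1448303_at, UT arrays had a lowest log2 level of 7.02, a median of 7.80 and a highest of 7.98, and the DAP12KO arrays stood at 7.38, 7.67, 7.43 and 7.20. Values in PBS were 6.90, 6.77, 6.37 and 7.38 and those in LPS 6.85, 7.06, 6.50 and 6.45. The other Gpnmb probe set, 1439345_at, stood at the lowest value of the table (2.19) on 16 of 18 arrays and did not pass the filter on low values.

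Lgals3 encodes galectin-3, a secreted lectin that gathers at damaged lysosomes and has been described as a ligand of TREM2. UT arrays had a lowest log2 level of 5.23, a median of 9.25 and a highest of 10.35. The lowest was replicate 3 of year 4, which was also the lowest UT array for Itgax, Lpl, Fabp5 and Cst7. Values in DAP12KO were 7.49, 10.29, 9.90 and 6.66. In PBS it stood at 4.48, 8.25, 6.54 and 9.48 and in LPS at 9.16, 8.63, 8.64 and 8.96. Lgals3 varied most of the 9 genes: its residual SD was 1.67 log2, and 94.1% of tested genes had a lower one.

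Cst7 encodes cystatin F, an inhibitor of lysosomal cathepsins. UT arrays had a lowest log2 level of 3.62, a median of 4.21 and a highest of 6.07. In DAP12KO it stood at 7.33, 5.93, 3.06 and 3.82, so that 2 were above the UT arrays of year 4 and 2 were not. PBS gave 7.79, 2.90, 2.87 and 3.77 and LPS 4.38, 3.99, 3.09 and 3.70. The PBS array of year 1 was the highest of all 18 arrays.

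The order of the group means was read gene by gene, and neighbouring groups in that order overlapped in range for all 9 genes. Over all label years, UT or DAP12KO held the highest mean for Apoe, Lpl, Cst7, Gpnmb, Clec7a and Cd9. LPS held it for Itgax and Lgals3, and PBS for Fabp5. Most PBS and LPS arrays come from label years without UT or DAP12KO arrays. This order therefore does not separate group from label year. Within year 4, the PBS array stood above the UT and DAP12KO means for Clec7a (8.06 against 7.27 and 6.73). It also did for Lpl (13.17 against 13.07 and 12.89) and Cd9 (11.76 against 11.67 and 11.66). For Gpnmb and Cst7 it stood below both means, and for Apoe it equalled the DAP12KO mean (14.03). For the genes other than Fabp5 and Lgals3, the residual SD was 0.39 for Gpnmb, 0.45 for Lpl, 0.63 for Cd9 and 0.67 for Clec7a. It was 0.80 for Apoe, 1.27 for Itgax and 1.35 for Cst7, beside a median of 0.83 over all tested genes.

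The comparison of DAP12KO with UT asks how these TREM2-linked genes stand in embryonic microglia that lack DAP12. None of the 9 genes passed the threshold of adjusted p under 0.05, and 0 of all 11630 genes (0.00%) did, by limma. At an unadjusted p under 0.05 the 9 genes again gave 0, beside 637 of all genes (5.48%). For 4 of the 9 genes the difference was above 0 and for 5 below 0, with a median of −0.01, and 51.8% of all tested genes were above 0.

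Because the label year is a term of the fit and the DAP12KO arrays are all of year 4, the 4 UT arrays of year 4 set these differences. The DAP12KO and UT arrays of year 4 overlapped for 9 of 9 genes, and 2.37% of all tested genes did not overlap. Among the lipid genes the difference was 0.16 ± 0.49 (SE, 95% interval −0.88 to 1.21) for Apoe, −0.19 ± 0.29 (−0.81 to 0.44) for Lpl and −0.11 ± 0.19 (−0.50 to 0.28) for Fabp5. The Fabp5 interval was the narrowest of the 9. Among the surface genes it was 0.04 ± 0.85 (−1.76 to 1.84) for Itgax, −0.01 ± 0.41 (−0.89 to 0.87) for Cd9 and −0.54 ± 0.56 (−1.72 to 0.65) for Clec7a. Among the lysosomal and secreted genes it was −0.24 ± 0.45 (−1.19 to 0.71) for Gpnmb, 0.47 ± 1.05 (−1.77 to 2.70) for Lgals3 and 0.90 ± 0.88 (−0.96 to 2.77) for Cst7. The adjusted p values of the 9 genes lay between 0.940 and 1.00.

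The widest intervals were those of Itgax, Lgals3 and Cst7, and a p over the threshold does not show that the levels are equal. Without UT replicate 3 of year 4 the difference of Itgax was −0.65 and that of Lgals3 −0.50, and without DAP12KO replicate 2 they were −0.64 and −0.10. Markers of border-associated macrophages, another Cx3cr1 lineage, had a mean log2 level of 8.29 to 8.87 in DAP12KO and 8.40 to 10.27 in UT (11 of 12 markers tested). Their summed level was 14.61 to 14.85 in DAP12KO and 14.57 to 15.73 in UT on the log2 scale, with 0 markers near the floor (under log2 2.49) on every array of either group. Their part in these differences was not tested.

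**Figure D2:**
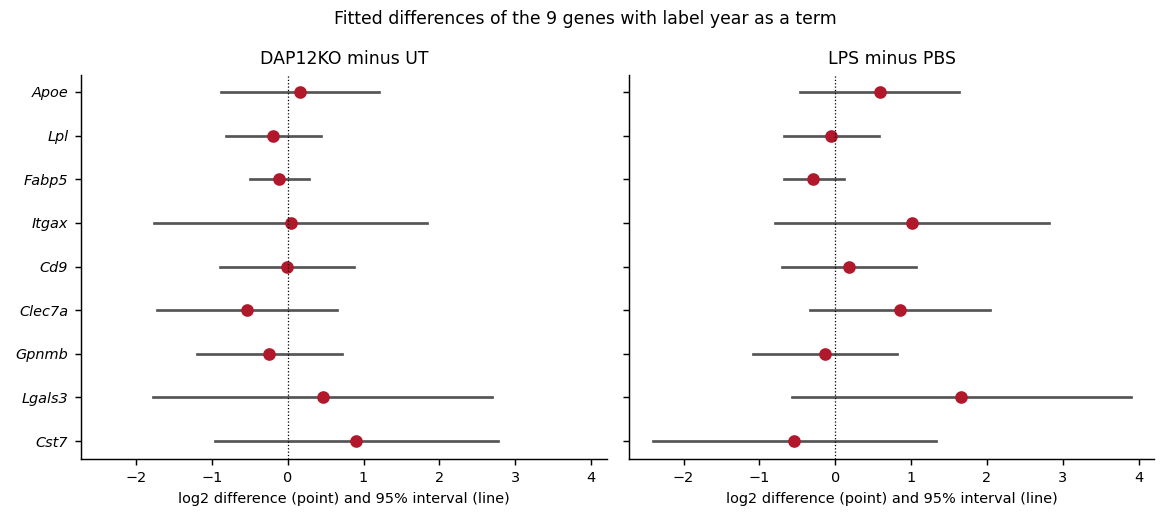
Fitted log2 differences (points) with 95% intervals (lines) of the 9 genes, for DAP12KO minus UT on the left and LPS minus PBS on the right, from 1 limma fit with label year as a term. Every interval crosses 0, from Fabp5 with the narrowest to Lgals3 with the widest (−1.77 to 2.70 and −0.57 to 3.89).

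LPS was compared with PBS to see how maternal inflammation bears on the same genes. Of the 9 genes 0 passed, beside 11 of all tested genes (0.0946%), by limma with Benjamini-Hochberg adjustment. At an unadjusted p under 0.05 it was 0 of 9, beside 1447 of all genes (12.4%). The difference was above 0 for 5 genes and below 0 for 4, with a median of 0.18 beside −0.12 over all tested genes.

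The largest differences were those of Lgals3, at 1.66 ± 1.05 (SE, 95% interval −0.57 to 3.89, adjusted p = 0.538, limma), Itgax, at 1.01 ± 0.85 (adjusted p = 0.665), and Clec7a, at 0.85 ± 0.56 (adjusted p = 0.551). Apoe stood at 0.59 ± 0.49 and Cd9 at 0.18 ± 0.41. The other differences were −0.06 ± 0.29 for Lpl, −0.14 ± 0.45 for Gpnmb, −0.29 ± 0.19 for Fabp5 and −0.54 ± 0.88 for Cst7. None of these 9 differences was called by this test.

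Within the label years, LPS minus PBS did not run one way for any of the 9 genes over years 1, 2 and 4. Apoe gave −0.37, 1.54 and −0.37 in that order, Lpl −1.50, 0.66 and −0.04, and Fabp5 −0.48, −0.45 and 0.24. For the surface genes the values were −1.16, 1.71 and 1.79 for Itgax, −0.35, 0.61 and −0.16 for Cd9, and 1.99, 0.91 and −0.41 for Clec7a. Lgals3 gave 4.68, 1.24 and −0.51, Cst7 −3.41, 0.65 and −0.07, and Gpnmb −0.06, 0.21 and −0.93. The size of the Lgals3 difference thus came mostly from the pair of year 1, in which the PBS array stood at 4.48 and the LPS array at 9.16. With 1 or 2 arrays a side, these values have no test within a year.

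Without both PBS arrays of year 2, the LPS arrays of year 2 no longer bear on the difference. It then rests on the pairs of years 1 and 4, each of 1 LPS and 1 PBS array. The same holds for LPS minus PBS wherever these PBS arrays are left out below. In this setting the difference turned to −0.37 for Apoe and −0.25 for Cd9. It was then above 0 for 3 genes and below 0 for 6, with a median of −0.25 beside −0.08 over all tested genes. Lpl then stood at −0.77 (adjusted p = 0.349, limma), from −1.50 in year 1 and −0.04 in year 4. On its other probe set, 1431056_a_at, the year 1 pair ran the other way (10.71 in PBS and 12.52 in LPS). Of the 9 genes 0 passed, beside 9 of all tested genes. Leaving out either array of year 1 takes that pair out of the difference, which then turned to 0.43 for Lpl and 0.41 for Cst7.

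**Figure D3:**
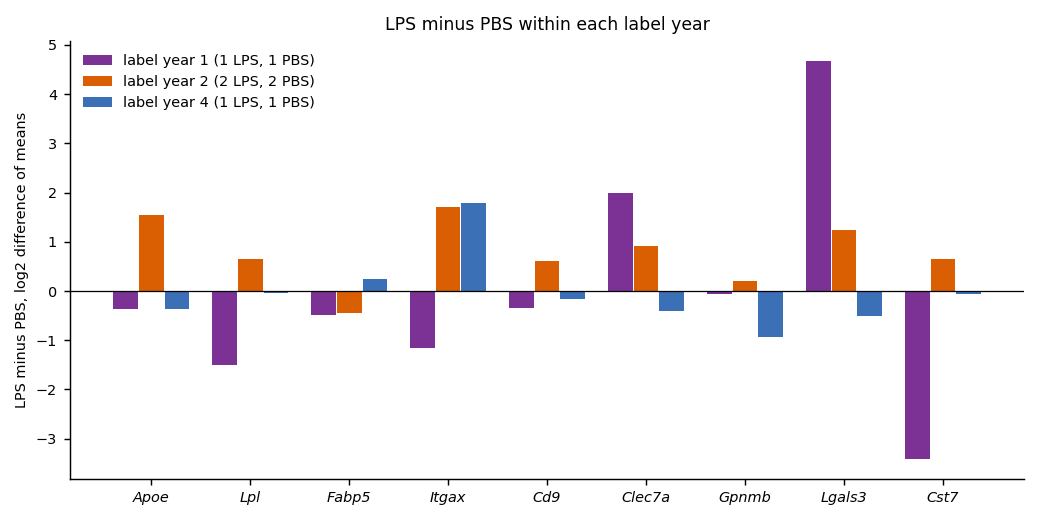
LPS minus PBS as a log2 difference of means (bars) for each of the 9 genes within years 1, 2 and 4. Bars of both signs stand beside each other for every gene, and the tallest are those of year 1 for Lgals3 (4.68) and Cst7 (−3.41), each from 1 LPS and 1 PBS array.

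The difference between the DAP12KO and LPS responses, which share no arrays, was tested for each gene. It was called for 0 of 9 genes and for 0 of all tested genes (0.00%), by limma with Benjamini-Hochberg adjustment. At an unadjusted p under 0.05 it was 0 of 9, beside 943 of all tested genes (8.11%). Clec7a had the lowest p among the 9, with a difference of the responses of −1.39 ± 0.79 (adjusted p = 0.658, limma), from −0.54 in DAP12KO and 0.85 in LPS. For Cst7 it was 1.45 ± 1.24, for Lgals3 −1.19 ± 1.48 and for Itgax −0.97 ± 1.20.

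Differences between label years were read from the same fit, a comparison added after the values were seen. Only PBS and LPS had arrays of years 1 and 2, so the differences of these years from year 4 rest on these groups. Year 4 enters them with 1 PBS and 1 LPS array, and the UT and DAP12KO arrays bear on the spread alone. The arrays of year 2 differed from those of year 4 in 894 of all tested genes (7.69%). Of the 9 genes 1 passed, Apoe, at −3.84 ± 0.60 (SE, adjusted p = 0.00152, limma). On the log2 scale the 4 arrays of year 2 lay at 8.59 to 11.45 and the 10 arrays of year 4 at 13.55 to 14.28. Of the latter the PBS array stood at 14.03 and the LPS array at 13.65. The count over all tested genes was 260 without both PBS arrays of year 2. All 9 genes had a difference below 0 with all arrays, among them Clec7a (−1.72 ± 0.68, adjusted p = 0.145) and Cd9 (−1.40 ± 0.51, adjusted p = 0.109). The remaining 6 lay between −1.21 (Lgals3) and −0.24 (Gpnmb). Without both PBS arrays of year 2 the differences of 4 of the 9 were above 0, those of Lpl (0.28), Itgax (0.33), Cst7 (0.67) and Gpnmb (0.11). Between years 1 and 4, 475 of all tested genes (4.08%) and 0 of the 9 passed.

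Trem2, the receptor, differed in the same direction and further, by −4.96 ± 0.48 (adjusted p = 3.67e-05, limma), whereas Tyrobp differed by −0.23 ± 0.16 (adjusted p = 0.434). On the log2 scale Trem2 stood at 6.22 and 7.27 on the PBS arrays of year 2, at 9.27 and 8.26 on the LPS arrays of year 2 and at 12.52 to 13.64 in year 4. The call for Apoe depended on few arrays. It was −2.89 (adjusted p = 0.0507) without both PBS arrays of year 2 and −3.20 (adjusted p = 0.0648) without PBS replicate 2 of year 4, and it kept its call without each of the other LPS and PBS arrays in turn. Trem2 was still called without both PBS arrays of year 2 (−3.98, adjusted p = 0.000547). Without LPS replicate 1 of year 2, Cd9 was also called (−1.87, adjusted p = 0.0162).

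Neuron markers (21 of 22 tested) had a summed log2 level of 16.25 and 16.27 on the PBS arrays of year 2, 14.99 and 15.10 on the LPS arrays of year 2, 12.11 to 14.16 in UT and 12.65 to 13.86 in DAP12KO. Of these markers 0 were near the floor on both PBS arrays of year 2, while 2 were near the floor on all UT arrays and 3 on all DAP12KO arrays. The Gapdh 3′ minus 5′ difference was also higher in year 2 (2.23 to 3.33), and that of actin was −0.08 to 0.32, beside −0.21 to −0.09 in year 4. The part of neural RNA and of RNA quality in the Apoe and Trem2 values was not tested.

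**Figure D4:**
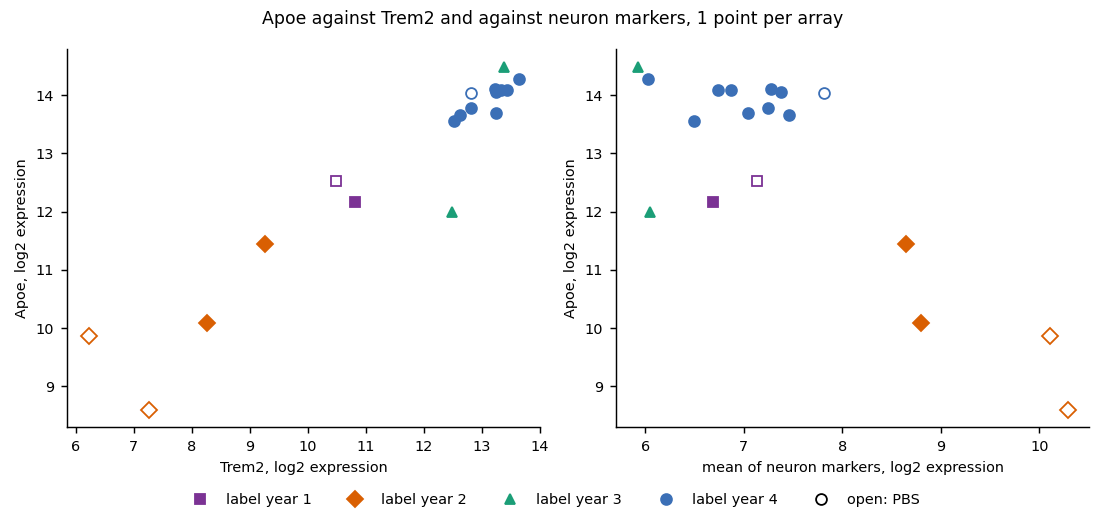
Apoe log2 expression (vertical axes) against Trem2 log2 expression (left) and against the mean log2 level of the neuron markers (right), 1 point per array, coloured and shaped by label year with PBS arrays drawn open. The 4 arrays of year 2 are low in both Apoe and Trem2 and hold the 4 highest neuron means, with PBS beyond LPS.

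The 2 probe sets of a gene did not always rank the arrays alike. Fabp5 had a second probe set, 1416022_at, with a Pearson r of 0.38 to the first over the 18 arrays. It gave 0.19 ± 0.27 for DAP12KO minus UT, where the first gave −0.11, and −0.55 ± 0.27 for LPS minus PBS (adjusted p = 0.434, limma over 22511 probe sets). Lpl had a second probe set, 1431056_a_at, with r = 0.10 to the first. It gave −0.33 ± 0.30 for DAP12KO minus UT and 0.60 ± 0.30 for LPS minus PBS (adjusted p = 0.444, limma), where the first gave −0.06. The LPS array of year 1 was lowest of all arrays on the first Lpl probe set (11.58) and highest on the second (12.52). None of the 11 tested probe sets of these genes passed in either comparison.

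**Figure D5:**
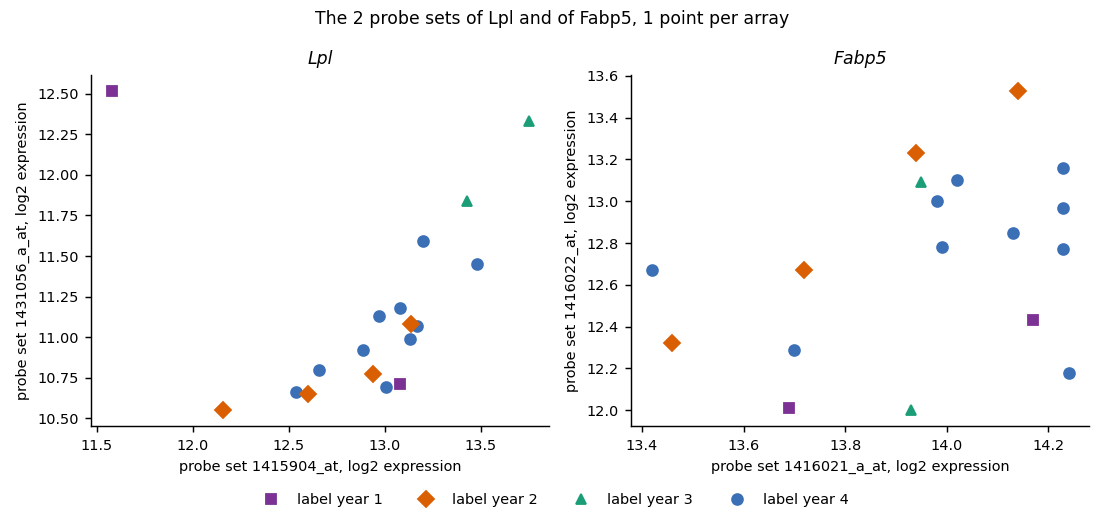
Log2 expression on the 2 probe sets of Lpl (left) and of Fabp5 (right), 1 point per array, coloured and shaped by label year. For Lpl most arrays rise together while the LPS array of year 1 lies at the upper left (11.58 and 12.52), and for Fabp5 the points scatter.

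How the genes moved with each other was described over the 10 arrays of year 4, which share a label year. Lpl and Lgals3 had a Pearson r of 0.77, Itgax and Lgals3 0.66, Itgax and Cst7 0.53, and Apoe and Fabp5 −0.73. UT replicate 3 was the lowest of these 10 arrays for Lpl (12.54), Itgax (4.98) and Lgals3 (5.23), and r without it was not computed. Over all 18 arrays, which also differ in label year, Apoe and Cd9 had r = 0.85, but 0.26 in year 4. Likewise Clec7a and Cd9 had 0.71 over all arrays and −0.12 in year 4. These values are descriptions over few arrays, and 36 pairs of genes were computed.

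The 2 genes outside the list whose log2 values followed each gene most closely over the 18 arrays were also named. They were picked as the highest r among all tested genes outside the list. The 10 arrays of year 4 are among these 18, so r in year 4 is not a separate check. For Apoe they were Ltc4s, which encodes leukotriene C4 synthase (r = 0.98), and the phosphatase gene Ptpn18 (0.95). Over the 10 arrays of year 4 these values were 0.45 and 0.44. For Cd9 they were Pabpc1, a poly(A) binding protein gene (0.95, and 0.43 in year 4), and the ribosomal protein gene Rpl10a (0.94, and 0.54). For other genes r within year 4 was 0.82 or more: Lgals3 with Rbm45 (0.88, and 0.90 in year 4) and Cyb5r1 (0.87, and 0.84), Gpnmb with Tspan31 (0.90, and 0.89) and Pwwp2b (0.86, and 0.82), and Fabp5 with Atxn10 (0.82, and 0.89) and Dcaf1 (0.79, and 0.86). Cst7 was followed most closely by Tmem115 (0.90, and 0.81) and Leng9 (0.80, and 0.69), and Itgax by Pecr (0.76, and 0.74) and Smim11 (0.71, and 0.80). Lpl was followed by Ppm1m (0.88, and 0.72) and the chemokine gene Ccl6 (0.87, and 0.50), and Clec7a by Coro7 (0.85, and 0.63) and Prelid1 (0.85, and 0.59).

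Upstream sequence is shown for Apoe, the gene that differed with label year, and for Itgax and Lgals3, which varied widely and were both lowest in the same UT array. Each run is the 250 bases before the RefSeq start site (GRCm38.p6), written 5′ to 3′ on the strand of the gene, with matches to a searched motif in capitals. The windows are chr7:19699189-19699438 on the minus strand for the first listed start site of Apoe, chr7:128129300-128129549 on the plus strand for Itgax, and chr14:47373610-47373859 on the plus strand for Lgals3.
Apoe: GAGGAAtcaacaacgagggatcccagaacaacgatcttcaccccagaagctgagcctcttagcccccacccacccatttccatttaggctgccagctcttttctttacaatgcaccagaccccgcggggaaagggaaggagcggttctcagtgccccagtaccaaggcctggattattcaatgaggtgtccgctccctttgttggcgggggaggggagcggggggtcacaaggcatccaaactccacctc
Itgax: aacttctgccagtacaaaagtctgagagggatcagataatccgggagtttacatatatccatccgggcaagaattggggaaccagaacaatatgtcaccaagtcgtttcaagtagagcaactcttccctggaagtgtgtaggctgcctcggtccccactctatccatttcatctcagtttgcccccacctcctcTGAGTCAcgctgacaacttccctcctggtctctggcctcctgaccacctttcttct
Lgals3: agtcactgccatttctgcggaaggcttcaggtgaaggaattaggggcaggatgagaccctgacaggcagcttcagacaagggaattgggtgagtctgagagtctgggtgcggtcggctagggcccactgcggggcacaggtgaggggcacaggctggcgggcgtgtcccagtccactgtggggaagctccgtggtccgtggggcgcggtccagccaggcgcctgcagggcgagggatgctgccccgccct
The motifs searched on both strands were the E-box CACGTG bound by MITF and TFE factors, the core GAGGAA bound by PU.1, the AP-1 motif TGANTCA and the TATA box TATAAA. Apoe carries GAGGAA at the far end of its window, Itgax carries TGAGTCA at −56 from the start, and Lgals3 carries none of these letters in its window.

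The RefSeq table held a promoter for 8 of the 10 listed genes, with 12 start sites. The PU.1 core was found for 3 of these 8 genes (Apoe, Clec7a and Spp1), AP-1 for 1, the TATA box for 2 (Apoe and Spp1) and the E-box for 0. Of all 32851 promoter windows of the same length, 23.3% held the PU.1 core, 6.7% AP-1, 12.4% the TATA box and 6.0% the E-box. Counted by window in the same way, the 12 windows of these genes held the PU.1 core in 5, AP-1 in 1, the TATA box in 2 and the E-box in 0. Windows of 1 gene can overlap and share sequence.

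Other genes of the programme, from a list that holds none of the 10, were read beside them. Of 30 such disease-associated and proliferative-region genes 28 were tested, and 0 passed in either direction in either comparison. In DAP12KO minus UT 11 differences were above 0 and 17 below, with a median of −0.08 beside 0.02 over all tested genes. Besides Tyrobp the lowest p values were those of Csf1, a growth factor of microglia (−0.43), and Mif, a cytokine (0.52), neither of which passed. Trem2 stood at 0.47 ± 0.39 (adjusted p = 0.926, limma). In LPS minus PBS 22 were above 0 and 6 below, with a median of 0.25 beside −0.12 over all tested genes. Without both PBS arrays of year 2 it was 10 above 0 and 18 below, with a median of −0.10 beside −0.08. In that setting the differences rest on single pairs of arrays, as stated above. Beside the list, 13 of 13 microglia markers were above 0 (median 0.40), 19 of 21 neuron markers were below 0 (median −0.81), and 15 of 17 markers of progenitors, radial glia and astrocytes were below 0 (median −1.19). Without those PBS arrays the medians were 0.02, −0.23 and −0.46, and the part of other cells in the shift was not tested. With all arrays the lowest p values were those of the chemokine gene Ccl4 (1.51), Trem2 (1.04 ± 0.39, adjusted p = 0.296) and the intermediate filament gene Vim (−0.68). Without both PBS arrays of year 2 the difference was 0.73 for Ccl4 and 0.06 for Trem2, and that of Vim turned to 0.12.

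Partners of lipid handling, such as receptors, transporters and other apolipoproteins, were tested for 19 of 24 genes, of which 0 passed. Clu, which encodes the lipid carrier clusterin, differed by −2.43 ± 0.81 in DAP12KO (adjusted p = 0.788, limma) and by −2.82 ± 0.81 with LPS (adjusted p = 0.181). The scavenger receptor gene Cd36 stood at −2.83 ± 1.00 in DAP12KO (adjusted p = 0.793), where 1 of the 4 arrays was near the floor, and the cholesterol exporter gene Abca1 at −0.28. For LPS minus PBS, Fabp7, a fatty acid binding protein gene of radial glia, stood at −0.75, and the exporter gene Abcg1 at 0.76. With both PBS arrays of year 2 left out, Fabp7 stood at −0.35, Abcg1 at 0.32 and Clu at −3.06.

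Binding and signalling partners of the 9 proteins were tested for 25 of 28 genes, again with 0 past the threshold. For LPS minus PBS, Itgam, which encodes the integrin subunit CD11b, stood at 2.25 ± 0.43 (adjusted p = 0.0648, limma), the protease gene Lgmn at 0.83 and Syk, the kinase downstream of DAP12 and dectin-1, at 1.45. With both PBS arrays of year 2 left out these were 1.48, 0.34 and 1.00, and the list had 8 differences above 0 and 17 below (median −0.21). For DAP12KO minus UT, the lowest p values after Tyrobp were those of Bcl10, an adaptor downstream of CARD9 (1.13), and of the phospholipase gene Plcg2 (0.54).

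Transcription factors linked to the programme were tested for 18 of 22 genes, with 0 past the threshold. For LPS minus PBS 15 were above 0 and 2 below, among them Bhlhe41 (2.40 ± 0.58, adjusted p = 0.133, limma), Tfe3 (0.74) and Irf8 (0.75, and −0.25 without both PBS arrays of year 2). Bhlhe41 was near the floor on 1 of the 4 PBS arrays. With both PBS arrays of year 2 left out, 7 of the list were above 0 and 11 below, with a median of −0.16. For DAP12KO minus UT the lowest p values were those of Pparg, Egr2 (−0.32) and Cebpa (0.29). Pparg was near the floor on all 6 UT arrays (2.19 to 2.48) and on 2 of the 4 DAP12KO arrays (2.19 to 6.93), so no size is given for it.

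Homeostatic microglia genes, which recede in adult disease-associated microglia, were tested for 17 of 18 genes, and 0 passed. For LPS minus PBS 17 were above 0, with a median of 0.40, among them Olfml3 (0.62), the purinergic receptor gene P2ry12 (0.64) and Siglech (0.86). The PBS arrays of year 2 held the lowest means of this list (12.20 and 12.31, against 13.12 to 13.91 on the other arrays). Without these 2 arrays 8 of the list were above 0 and 9 below, with a median of −0.02. Those differences rest on single pairs of arrays, as stated above. For DAP12KO minus UT the median was 0.02, with Aif1 at 0.36, Selplg at 0.63 and C1qb at −0.18.

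Cell cycle genes, which mark the dividing cells of proliferative regions, were tested for 23 of 24 genes, and 0 passed. In DAP12KO minus UT 20 were above 0 and 3 below, with a median of 0.35 beside 0.02 over all tested genes. The lowest p values were those of the proliferation marker gene Mki67 (0.29), the topoisomerase gene Top2a (0.75) and Birc5 (0.48). In LPS minus PBS 14 were above 0 and 9 below, with Aurka at 1.96, Tpx2 at −0.93 and Pcna at 0.35.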

How the data were processed

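Microglia RNA from 18 samples was amplified with Ovation Pico WTA v2 and hybridized to Affymetrix Mouse430_2 arrays, per the labels' protocols. The deposited table holds log2 values made by the authors. RMA is named in the submitters' processing notes, with no version. The columns were used as deposited, and for arrays their number limits the precision. Array medians lay between 2.78 and 3.17, and 32.7% to 38.2% of probe sets per array were at 2.19, the minimum of the table.

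Of the probe sets 34958 named 1 gene, 932 several and 9211 none, by GEO's platform annotation. Entrez identifiers of 34754 of the first were found among RefSeq genes, and 0 symbols changed. A gene was represented by its brightest such probe set, and genes under the 40th percentile of probe set means (log2 2.49) were left out. limma 3.58.1 in R 4.3.3 fitted a mean per group plus label year (11 residual degrees of freedom), with a variance trend and Benjamini-Hochberg adjustment over 11630 genes (two-sided, threshold 0.05). The fit was tested on simulated data. Figures used matplotlib 3.10.9.

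All members were named. From each gene list the 3 genes with the lowest p in each comparison were named where none passed, with Tyrobp and Trem2 always, and for each member the 2 most correlated genes. The members and lists were chosen with earlier results of these data known. Whether arrays come from separate dams was not checked beyond the series' design text, so the spread between arrays may be partly technical. Replicate numbers did not pair the DAP12KO and UT arrays (Pearson r of deviations −0.01 and 0.01). The alternatives tried were filters, scaling, array weights, the variance trend, the label year term, the choice of probe set, the arrays in the fit and a replicate block.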

Additional observations from a re-analysis of the deposited data

Results flagged for a closer look

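In each group of 4 or 6 arrays, every probe set of the 9 genes was screened for a single array far from the others by Dixon's criterion. Of 46 combinations of probe set and group 6 were flagged, and chance flags about 1 in 20. Itgax was 4.98 and Lgals3 5.23 (log2) on UT replicate 3 of year 4, against 7.51 to 8.08 and 8.49 to 10.35 on the other UT arrays. Clec7a was 7.26 on DAP12KO replicate 2, against 6.55 to 6.56 on the other DAP12KO arrays. Lpl was 11.58 on LPS replicate 3 of year 1, against 12.94 to 13.14 on the other LPS arrays. The dim Gpnmb probe set was 2.33 on DAP12KO replicate 2 and 2.21 on UT replicate 3 of year 3, against 2.19 on the other arrays of those groups. In these 2 cases all the other arrays share 1 value, so any departure is flagged and the share expected by chance does not apply, which leaves 4 flags.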

How the results depend on the processing

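The count of members past the threshold was 0 under every alternative run, of 9 members or, under the stricter filter, which left out Cst7, of 8. The difference of the responses was not run with only the 2 groups compared, with only year 4 or without year 2, nor LPS minus PBS with only year 4. The count over all genes for LPS minus PBS, 11, was 0 under the stricter filter, without the label year term and with only the 2 groups compared. It was 1 with no filter or with each array centred, 3 without the variance trend or with low values set to the threshold, 6 with the mean of probe sets, 9 without both PBS arrays of year 2, 5 without year 2, 13 after quantile normalization and 826 with array weights. With arrays left out one at a time it ranged from 0 (without any 1 of the 4 arrays of year 2) to 120 (without PBS replicate 2 of year 4). It was 119 without LPS replicate 3-2 of year 4, and 77 and 79 without PBS replicate 4 and LPS replicate 3 of year 1. Leaving out either array of year 1, or either PBS or LPS array of year 4, takes the pair of that year out of the difference. The counts of 120 and 119, and of 77 and 79, are therefore not separate results. For DAP12KO minus UT the count over all genes was 0, and 2, 2, 4 and 6 without UT replicate 6, DAP12KO replicate 4, UT replicate 1 and DAP12KO replicate 5. For the difference of the responses it was 0, but 11 with array weights, 1 with no filter, without the variance trend or with the mean of probe sets, 1 without DAP12KO replicate 4, 9 without either array of year 1, and 18 without PBS replicate 2 or LPS replicate 3-2 of year 4.

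Some differences that did not pass changed sign. For DAP12KO minus UT, Itgax was −0.25 and Lgals3 −0.18 without the label year term, Itgax −0.06 with centred arrays and −0.01 after quantile normalization, and Fabp5 0.04 with the mean of probe sets. For LPS minus PBS, array weights gave Lpl 0.46, Cst7 0.34 and Gpnmb 0.06, and centring gave Lpl 0.05. Quantile normalization gave Gpnmb 0.02, and the mean of probe sets gave Lpl 0.27. Without both PBS arrays of year 2, Apoe was −0.37, Cd9 −0.25, Vim 0.12, Tyrobp −0.08 and Irf8 −0.25. Leaving out all arrays of year 2 (added after seeing the data) gave the same differences by construction. With label year in the fit, LPS arrays of a year without PBS arrays do not bear on this difference. With arrays left out one at a time, DAP12KO minus UT ranged from −0.10 to 0.14 for Cd9, −0.65 to 0.63 for Itgax, −0.50 to 1.11 for Lgals3, −0.72 to 0.03 for Egr2 and −0.23 to 0.06 for Fabp5. LPS minus PBS ranged from −0.29 to 0.43 for Lpl, −0.96 to 0.41 for Cst7, −0.29 to 0.47 for Cd9 and −0.32 to 0.12 for Gpnmb. The causes were not tested.

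With replicate number within label year as a random block (consensus correlation 0.09), 0 members passed, 0 genes passed for DAP12KO minus UT and 18 for LPS minus PBS, Itgam among them (2.30, adjusted p = 0.0461, limma). In year 2 LPS and PBS arrays of the same number deviated together (Pearson r = 0.53, which with 2 arrays a group is the same for both pairs by construction), and the DAP12KO and UT numbers did not. Itgam also passed without PBS replicate 2 or LPS replicate 3-2 of year 4 (2.75 both), as did Bhlhe41 (3.07) and Lgmn (1.07). Leaving out either array takes the pair of year 4 out of the difference, so both settings give the same estimate by construction. With array weights 12 named genes passed, none of them among the 9. For probe sets near the floor, such as the dim Gpnmb one and that of Pparg, signal over background limits what can be seen.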

Other observations

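Further markers of cells that the sort could hold were read over the same fit, and none passed in DAP12KO minus UT or LPS minus PBS by limma. Border-associated macrophage markers (11 tested) had 2 differences above 0 and 9 below in each comparison, with 3 at an unadjusted p under 0.05 for DAP12KO minus UT and 1 for LPS minus PBS. Of 14 monocyte and neutrophil markers 4 were tested, with means of 3.06 to 5.43 over all arrays, and of 8 dendritic cell markers 2 were tested. Pericyte, fibroblast and meningeal markers (9 of 14 tested) reached 5.74 and 6.68 on the PBS arrays of year 2, against at most 5.01 elsewhere. Choroid plexus markers (3 of 10 tested) reached 7.32 and 8.54 there, against at most 7.54. Endothelial (4 of 10 tested) and oligodendrocyte lineage (4 of 9 tested) markers reached 6.68 and 6.74 on PBS arrays of year 2, against at most 6.89 and 4.96 elsewhere. Erythroid markers (3 of 8 tested) stayed at or below 4.21.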
